A study of Mus musculus with 14 samples.

Results

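RNA-seq counts of a reverted mouse pluripotent line at passage 6 were set against those of epiblast stem cells still in the course of reversion. The 4 libraries were chosen by their labels out of the 14 of the series, 2 for each side. The cells on one side, rES passage 6, carry the genotype label CD1-deltaTSIX/JF1, were reverted from epiblast stem cells (EpiSC), and per the labels' protocols were kept in LIF, knockout serum replacement and Knockout DMEM with 25 µM MM401 after passage 3. The cells on the other side, MM401 P2, carry the genotype label CD1/JF1 and are EpiSC after 6 days (passage 2) in the same medium with 100 µM MM401. The other 10 libraries are rES at passage 30 with and without MM401, EpiSC treated for 3 days, untreated EpiSC, and embryonic stem cells (ESC), 2 of each. LIF and MM401 were thus shared by both sides, while genotype label, MM401 dose, time in culture and passage all changed together, so their parts in any difference cannot be told apart. Nothing in the labels ties the rES line to the MM401 P2 culture by descent, and the number of clones behind the line is not stated.

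MM401 inhibits MLL1, the histone H3 lysine 4 methyltransferase encoded by Kmt2a. Mouse ESC stand for the naive state of the early epiblast and rely on LIF, which acts through STAT3 on transcription factors such as Klf4, Tfcp2l1 and Tbx3. EpiSC stand for the primed, later epiblast and rely on FGF and activin. Both states share Pou5f1, Sox2 and Nanog, so a reverted cell is recognised by its naive factors rather than by these.

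The libraries held 20831588 and 23045854 counts in rES passage 6, against 74952496 and 80383376 counts in MM401 P2. The variance between the 2 libraries of a group was 1.36 times that of counting error in rES passage 6 and 9.16 times in MM401 P2 (chi-square per degree of freedom). This ratio grows with depth at the same relative spread. The Pearson r of log2 levels between the 2 libraries was 0.9990 in rES passage 6 and 0.9991 in MM401 P2. The title of the second MM401 P2 library reads P2b where the first reads P2. The ribosomal RNA precursor Rn45s held 0.409% and 0.391% of counts in rES passage 6, against 1.39% and 1.55% in MM401 P2. Depth and this share therefore move with the comparison. After thinning to the shallowest library 11477 genes were called, and 11853 without Rn45s, near the count given below. The only other libraries of such depth were those of MM401 day 3, with 113221270 and 116086115 counts. These numbers of calls cannot show whether the deep libraries were made or run apart from the others. The series text speaks of biological duplicates, and no separate culture is named for each library, so a p-value measures only the spread between these libraries.

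Calls rest on an adjusted p under 0.05 (edgeR quasi-likelihood F test, Benjamini-Hochberg over 16247 genes tested, two-sided). Words such as rose or lower are used of called genes and describe rES passage 6 relative to MM401 P2. Levels are CPM, counts scaled to library size, given for the 2 libraries in order of replicate number, and changes are log2 fold changes with their standard error. In all, 11856 genes (73%) were called, 5771 of them higher (35.5%) and 6085 lower (37.5%). At least 2-fold changes numbered 1737 higher and 2165 lower, and at least 4-fold changes 596 and 663. The median log2 fold change over all genes tested was -0.01. A change in the mix of cells and a change within cells cannot be told apart in bulk RNA, for any gene or list below. With so many genes called, a count of called members of a list is close to what any list would give unless it leans to one side, so each list below is given by its counts in both directions and its median, with no test of the list.

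**Figure D1:**
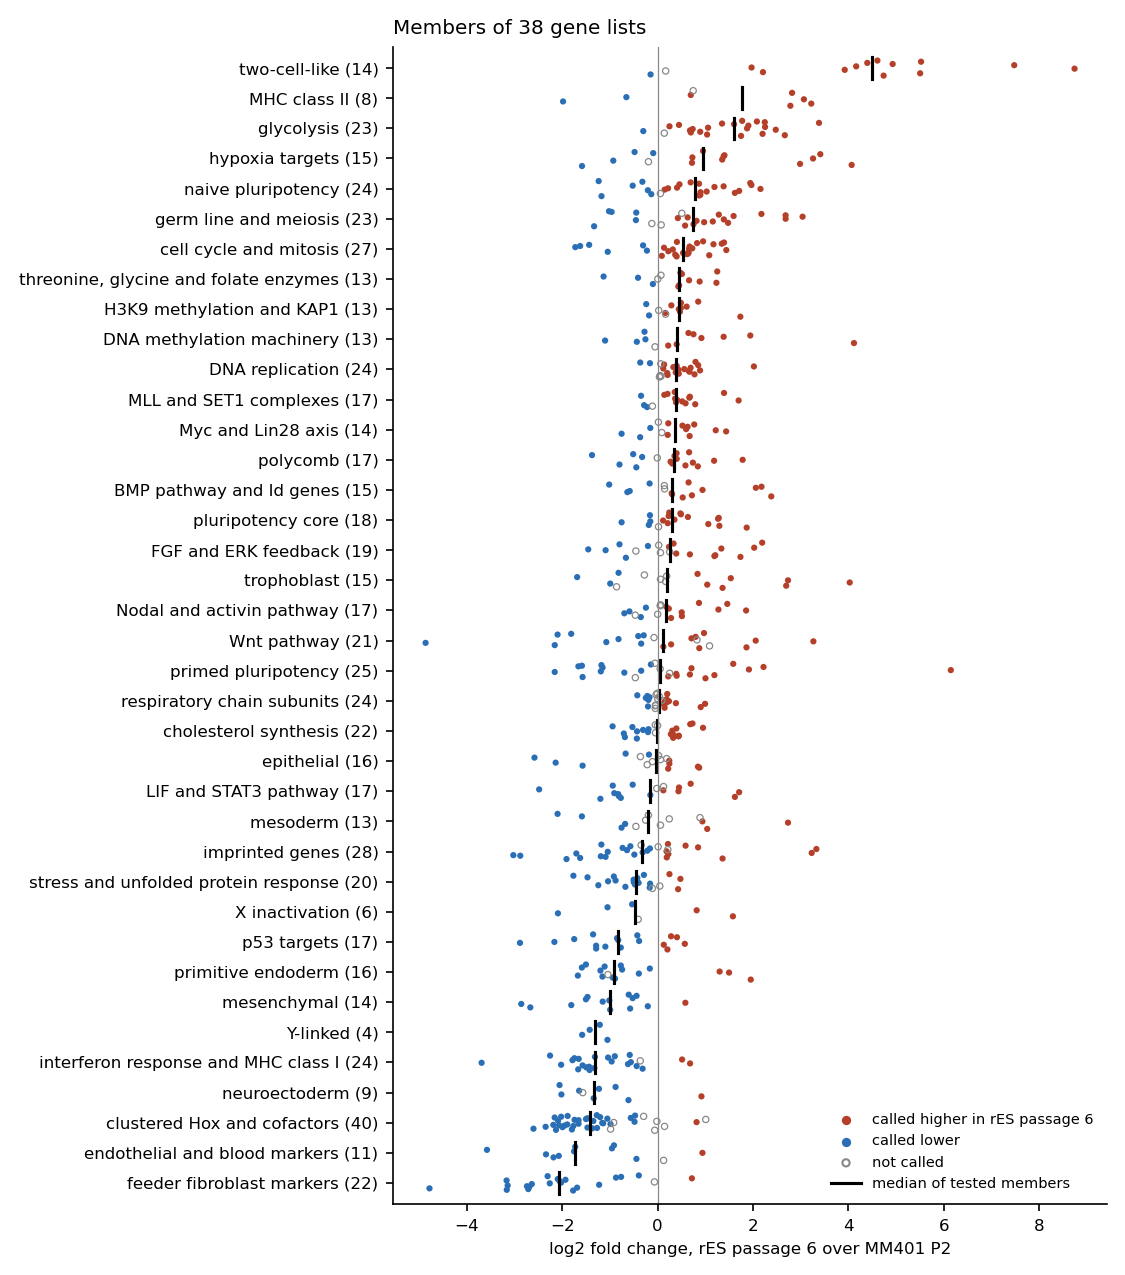
Log2 fold change (horizontal axis, rES passage 6 over MM401 P2) of every tested member of 38 gene lists, with the number tested after each name. Filled points were called higher or lower, open points were not called, and black bars are list medians. The two-cell-like list has the highest median (4.50) and the feeder fibroblast markers the lowest (-2.07).

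The gene named in the rES genotype label, Tsix, is the antisense partner of Xist, the RNA that coats the inactive X chromosome. Tsix had 0.910 and 1.04 CPM in rES passage 6, against 2.36 and 1.71 CPM in MM401 P2, a log2 fold change of -1.05 ± 0.30 (adjusted p = 0.00196). It had 1.58 and 0.779 CPM in rES passage 30, 0.785 and 1.06 CPM in rES passage 30 without MM401, 4.23 and 3.40 CPM in MM401 day 3, 0.163 and 0.537 CPM in EpiSC and 1.40 and 1.26 CPM in ESC. The rES passage 6 libraries lay below both MM401 P2 libraries. Library strand is not stated in the sources used here, so reads of Tsix and Xist cannot be told apart where the genes overlap, and which stretch of Tsix is deleted is not given either; these values do not check the label.

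Both groups expressed the shared pluripotency factors. Pou5f1, the POU factor at the centre of the network, had 1457 and 1458 CPM in rES passage 6, against 597 and 615 CPM in MM401 P2 (1.27 ± 0.04, adjusted p = 6.23e-29), and it lay at 949.9 and 950.3 CPM in EpiSC and 1518 and 1550.1 CPM in ESC. MM401 P2 lay below both of those. Sox2, its partner on DNA, had 804 and 791 CPM in rES passage 6, against 699.5 and 661 CPM in MM401 P2 (0.23 ± 0.04). Nanog, a homeobox factor, had 811 and 828 CPM in rES passage 6, against 754 and 761 CPM in MM401 P2 (0.11 ± 0.04, adjusted p = 0.00611). The Nanog groups did not overlap but lay close, and its call was lost without the second rES passage 6 library (adjusted p = 0.0727) and its sign turned without the genes that follow the feeder markers described below (-0.011, adjusted p = 0.797, against 0.11 here). Of the 18 core pluripotency genes tested, 13 were higher, 4 lower and Dppa4 was not called, with a median of 0.30, which was 0.11 without the genes that follow the feeder markers (10 higher and 4 lower of 16). The other members named by the smallest p all rose. These were Dppa2, an early-embryo chromatin protein (1.87 ± 0.06), Foxd3, a forkhead factor (1.29 ± 0.06), L1td1, an RNA-binding protein (1.06 ± 0.03), and Sall4, a zinc finger factor (0.63 ± 0.04). Lin28b, which blocks let-7 maturation, fell by the most within the list (-0.76 ± 0.09) and was chosen after its value was seen.

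Naive factors rose for the most part. Among the 24 tested, 17 were higher, 6 lower and Fgf4 was not called, with a median log2 fold change of 0.78 against -0.01 over all genes. Nr0b1, an orphan nuclear receptor that binds Pou5f1, had 470.2 and 457 CPM in rES passage 6, against 104 and 104 CPM in MM401 P2 (2.15 ± 0.04, adjusted p = 7.15e-36). Tbx3, a T-box factor, had 689 and 676 CPM in rES passage 6, against 184 and 166 CPM in MM401 P2 (1.96 ± 0.04). Klf4, a Krüppel-like factor downstream of STAT3, had 654 and 648 CPM in rES passage 6, against 200.4 and 198 CPM in MM401 P2 (1.71 ± 0.04). All 3 separated the groups with wide gaps, and in each the MM401 P2 libraries were the lower. Klf4 stood at 182 and 180.0 CPM in ESC, 60.3 and 56.5 CPM in EpiSC and 727 and 664 CPM in rES passage 30. Tbx3 stood at 271 and 269 CPM in ESC, 19.6 and 18.9 CPM in EpiSC and 712 and 646 CPM in rES passage 30. Nr0b1 stood at 387 and 385 CPM in ESC, 30.5 and 30.3 CPM in EpiSC and 525 and 483 CPM in rES passage 30. For all 3 the EpiSC libraries were the lowest of these groups.

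Smaller rises came in other factors. Prdm14, which represses the de novo methyltransferase genes, had 198 and 198 CPM in rES passage 6, against 86.9 and 86.4 CPM in MM401 P2 (1.19 ± 0.04). Esrrb, a nuclear receptor, had 1048 and 1073 CPM in rES passage 6, against 578 and 563 CPM in MM401 P2 (0.89 ± 0.03). Tfcp2l1, a STAT3 target, had 1176 and 1189 CPM in rES passage 6, against 769.8 and 694 CPM in MM401 P2 (0.69 ± 0.04). Not every naive marker moved this way. Zfp42 (Rex1), a widely used naive marker, had 88.8 and 86.4 CPM in rES passage 6, against 206 and 207 CPM in MM401 P2, a log2 fold change of -1.24 ± 0.04 (adjusted p = 2.34e-26), and stood at 83.9 and 83.4 CPM in rES passage 30, 20.2 and 17.9 CPM in EpiSC and 271 and 272 CPM in ESC. Dppa3 (Stella), a maternal protein that guards DNA methylation marks, had 5.03 and 3.12 CPM in rES passage 6, against 8.90 and 9.36 CPM in MM401 P2 (-1.18 ± 0.15), and ESC held 17.6 and 18.7 CPM. Both were thus below their ESC level in all 4 libraries, and lower in rES passage 6 than in MM401 P2. Of the 24 naive genes, 2 were among the genes that follow the feeder markers.

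Genes of the primed state were split. The list of 25 held 11 higher, 10 lower and 4 not called (Fgf5, Pou3f1, Zic5 and Cer1), with a median of 0.05, which became -0.05 without the second rES passage 6 library and 0.16 without the first. Fgf5, the classic primed marker, had 1.01 and 1.17 CPM in rES passage 6, against 0.719 and 1.10 CPM in MM401 P2, and its change of 0.25 ± 0.28 was not called (adjusted p = 0.433); EpiSC held 7.55 and 7.68 CPM and ESC 22 and 20.2 CPM. The 2 groups overlapped and lay below both of those, and the ESC libraries of this series held more Fgf5 than the EpiSC libraries. Otx2, a homeobox factor of the primed state, had 94.2 and 92.6 CPM in rES passage 6, against 26 and 23.6 CPM in MM401 P2 (1.91 ± 0.05, adjusted p = 4.48e-30), and stood at 31.3 and 31.9 CPM in EpiSC and 112 and 110.0 CPM in ESC. The rES passage 6 libraries were closer to ESC and the MM401 P2 libraries to EpiSC for this gene. Dusp6, an ERK phosphatase, had 99.5 and 100.3 CPM in rES passage 6, against 46.6 and 41.1 CPM in MM401 P2 (1.19 ± 0.05). Lower members included Fzd2, a Wnt receptor (16.4 and 16.3 CPM in rES passage 6, against 71.3 and 74.9 CPM in MM401 P2, -2.16 ± 0.07), and Grb10, an imprinted adaptor of insulin signalling (-1.19 ± 0.04). Nkx1-2, a homeobox gene, had 9 counts over both rES passage 6 libraries and 0 over both MM401 P2 libraries, and its fold is not given at so few counts; it was chosen after its value was seen. Of the 25 members, 10 follow the feeder markers, and the other 15 had a median of 0.55, with 9 higher and 2 lower. Genes low in the reverted line can be among those 10 for other reasons, so this lean is not read further.

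**Figure D2:**
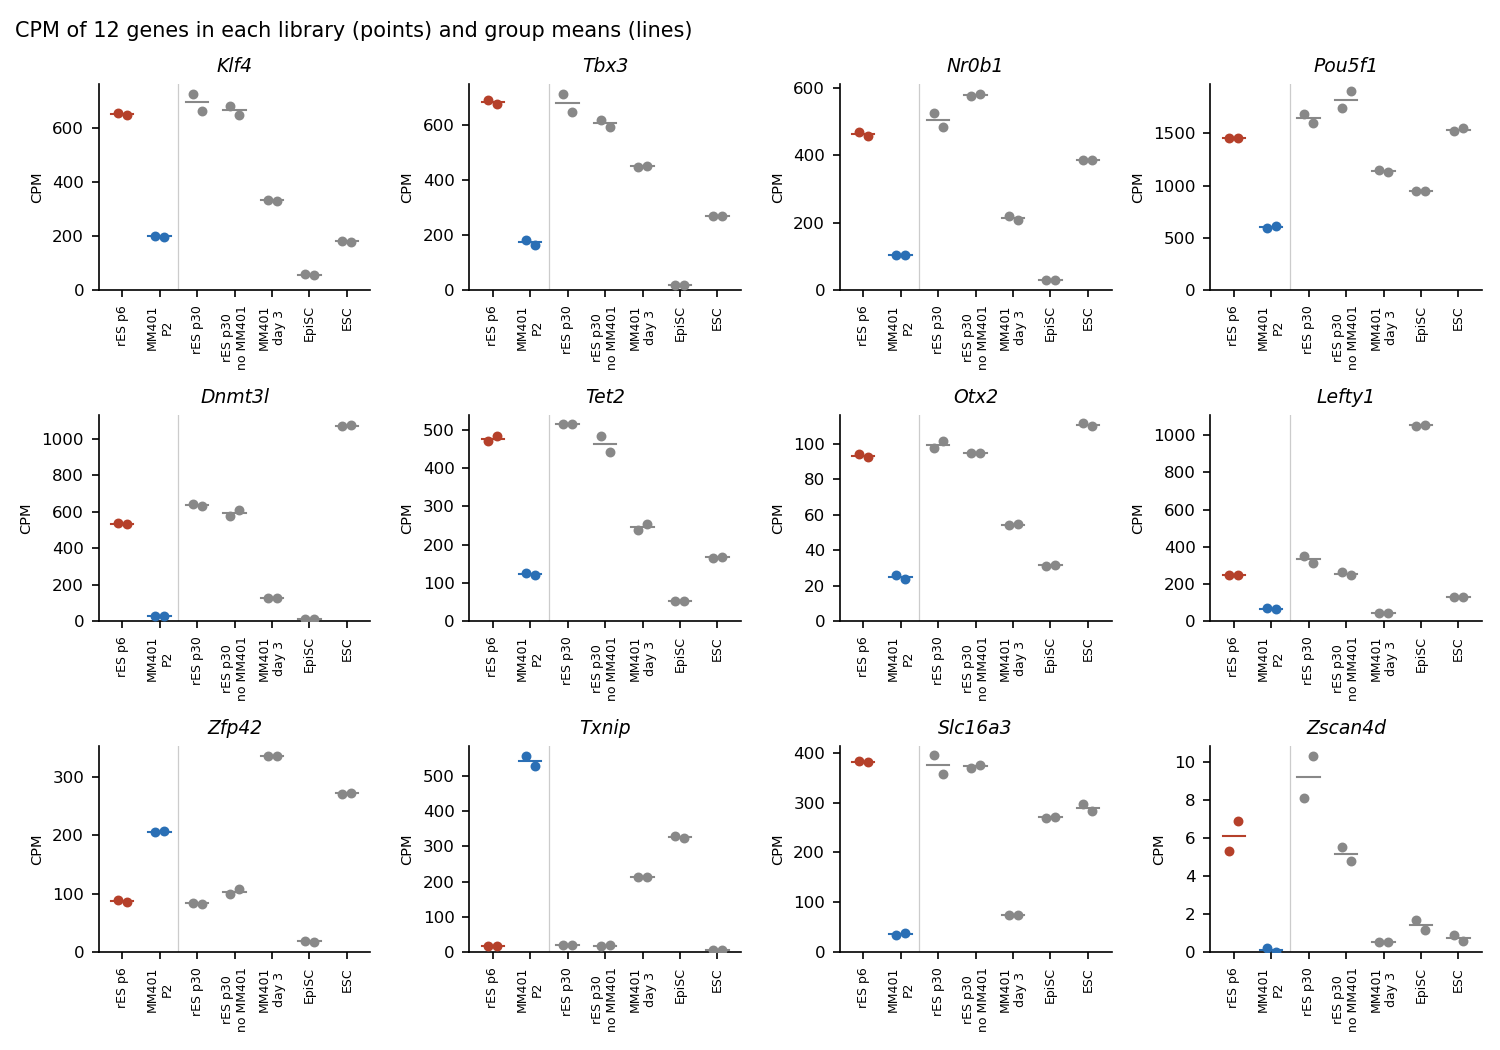
CPM (vertical axis, from 0) of 12 genes in each of the 14 libraries, as points, with group means as lines; rES passage 6 and MM401 P2 stand at the left in colour and the other groups in grey. Dnmt3l, Slc16a3 and Zscan4d are high in rES passage 6 and close to the axis in MM401 P2, and Txnip is the reverse.

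In the machinery of DNA methylation, Dnmt3l, the catalytically inactive partner of the de novo methyltransferases, had 539 and 533 CPM in rES passage 6, against 30.5 and 31.3 CPM in MM401 P2, a log2 fold change of 4.12 ± 0.04 (adjusted p = 8.42e-45). It had 643 and 631 CPM in rES passage 30, 575 and 609 CPM without MM401 at that passage, 129 and 130.0 CPM in MM401 day 3, 13.7 and 14.2 CPM in EpiSC and 1069 and 1075 CPM in ESC. The reverted line was thus high at both passages, and the MM401 P2 libraries lay far below ESC. The enzymes Dnmt3l works with changed less, with Dnmt3b at 0.40 ± 0.05 and Dnmt3a at 0.22. Dnmt3b had 31.8 and 35.1 CPM in rES passage 6, against 25.7 and 25.1 CPM in MM401 P2. Both groups lay far below EpiSC (561 and 573 CPM) and ESC (336 and 334 CPM) for Dnmt3b. Dnmt1, the maintenance enzyme, was not called (Dnmt3a and Dnmt1 were chosen after their values were seen). Uhrf1, which brings Dnmt1 to newly made DNA, rose (465 and 463 CPM in rES passage 6, against 296 and 297 CPM in MM401 P2, 0.65 ± 0.03). Of the oxidases that remove the mark, Tet2 had 469.6 and 483 CPM in rES passage 6, against 126 and 122 CPM in MM401 P2 (1.94 ± 0.04) and Tet1 had 872 and 877 CPM in rES passage 6, against 343 and 328 CPM in MM401 P2 (1.38 ± 0.04). In the whole list of 13 genes, 8 were higher, 4 lower and Dnmt1 not called, with a median of 0.40 (0.63 without the 4 that follow the feeder markers).

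Among chromatin complexes, subunits were mostly higher, by small amounts. The gene of the drug's target, Kmt2a, had 155 and 165 CPM in rES passage 6, against 128 and 117 CPM in MM401 P2 (0.38 ± 0.05, adjusted p = 7.60e-10), and stood at 140.4 and 155 CPM in EpiSC and 162 and 162 CPM in ESC. In the MLL and SET1 list of 17 genes, 13 were higher, 3 lower and Cxxc1 not called (median 0.38). Of the related methyltransferase genes, Kmt2c had 287 and 296 CPM in rES passage 6, against 92.3 and 87.7 CPM in MM401 P2 (1.70 ± 0.04), Setd1b rose by 1.39 ± 0.05 and Kmt2b by 0.51 ± 0.04. The shared subunits Hcfc1, which is X-linked (0.79 ± 0.03), and Paxip1 (0.68 ± 0.04) rose too. Polycomb genes, which serve the opposing H3 lysine 27 mark, were higher in 11 of 17 cases and lower in 5 (median 0.35). They included rises in Kdm2b, which reads unmethylated CpG islands (223 and 220.0 CPM in rES passage 6, against 66 and 62.9 CPM in MM401 P2, 1.78 ± 0.04), Jarid2 (1.18 ± 0.03), Suz12 (0.66 ± 0.04) and Cbx7 (0.58 ± 0.04) and a fall in the PRC2 accessory gene Phf19 (-1.38 ± 0.05). In the H3K9 methylation and KAP1 list, 9 of 13 were higher and 2 lower (median 0.44), among them Zfp57, which protects imprints (0.85 ± 0.03), Setdb1 (0.61 ± 0.04), Trim28 (0.49 ± 0.03), Morc3 (0.49 ± 0.04) and Ehmt2 (0.44 ± 0.04). Its widest rise was in Atrx, an X-linked chromatin remodeller (623 and 634 CPM in rES passage 6, against 179 and 199 CPM in MM401 P2, 1.73 ± 0.09), chosen after its value was seen.

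Sugar transport and glycolysis rose almost as a block. Cells take up glucose through Slc2a1 and Slc2a3, split it in the glycolytic steps, reduce pyruvate to lactate with Ldha and export lactate through Slc16a3. Of the 23 genes tested, 21 were higher, Hk1 was lower and Eno3 was not called, with a median log2 fold change of 1.60 against -0.01 over all genes. Slc16a3 had 382 and 380.5 CPM in rES passage 6, against 35.3 and 37.8 CPM in MM401 P2 (3.38 ± 0.04, adjusted p = 1.52e-40). Ldha had 1123 and 1142 CPM in rES passage 6, against 204 and 203 CPM in MM401 P2 (2.48 ± 0.03). Slc2a1 had 1129.8 and 1106 CPM in rES passage 6, against 236 and 236 CPM in MM401 P2 (2.25 ± 0.03). Each of these genes separated the groups, with the MM401 P2 libraries several times lower. Slc2a3 rose by 2.08 ± 0.03 and Pfkl, a phosphofructokinase, by 2.25 ± 0.04. The exception Hk1, a hexokinase, changed by -0.30 ± 0.04, and Eno3 by 0.14 ± 0.10 with no call; both were named after their values were seen. Gapdh and Eno1 are included in the count, but have many near-identical pseudogenes and few counts here, so their values are uncertain.

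MM401 P2 was the lowest of the 7 groups for both Slc16a3 and Ldha. Slc16a3 stood at 394 and 357 CPM in rES passage 30, 369 and 375 CPM without MM401, 75.5 and 74.3 CPM in MM401 day 3, 269 and 271 CPM in EpiSC and 296 and 283 CPM in ESC. Ldha stood at 1194 and 1198 CPM in rES passage 30, 1386 and 1415 CPM without MM401, 363 and 355 CPM in day 3, 616 and 623 CPM in EpiSC and 1048 and 1036 CPM in ESC. Txnip, which blocks glucose uptake and whose RNA follows intracellular sugar, went the other way. It had 17.4 and 17.9 CPM in rES passage 6, against 555 and 527 CPM in MM401 P2, a log2 fold change of -4.94 ± 0.05 (adjusted p = 1.12e-43), one of the 15 largest falls, and stood at 19.9 and 19.6 CPM in rES passage 30, 212 and 212 CPM in MM401 day 3, 330.0 and 324 CPM in EpiSC and 6.60 and 7.06 CPM in ESC. Of 24 subunits of the respiratory chain 10 were higher and 6 lower, with a median of 0.02. None of the 24 follows the feeder markers, but when the genes that do were left out, which rescales the libraries, 4 were higher and 12 lower (median -0.11), so the direction of this list is not settled. X-linked Cox7b had its largest rise (0.99 ± 0.04), followed by Atp5c1 (0.90 ± 0.04), and Sdhc fell (-0.43 ± 0.04).

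Targets of the hypoxia-inducible factors rose in part. Of 15 tested, 10 were higher, 4 lower and Car9 was not called, with a median of 0.95. Ndrg1, a stress-responsive gene, had 266 and 265 CPM in rES passage 6, against 25.4 and 24.6 CPM in MM401 P2 (3.41 ± 0.04, adjusted p = 3.62e-41). Egln3, a prolyl hydroxylase that turns the factors over, had 152 and 154 CPM in rES passage 6, against 15.5 and 16.4 CPM in MM401 P2 (3.26 ± 0.05). Bnip3, a mitophagy receptor, had 83.9 and 82.7 CPM in rES passage 6, against 10.5 and 10.6 CPM in MM401 P2 (2.98 ± 0.06). These 3 were all higher in both rES passage 6 libraries by a wide margin, as was Ankrd37 (22.2 and 22.3 CPM in rES passage 6, against 1.53 and 1.13 CPM in MM401 P2). Kdm3a, a histone demethylase, rose by 1.38 ± 0.04. Lower members were Adm, the vasodilator adrenomedullin (-1.59 ± 0.07), Ddit4 (-0.93 ± 0.05), P4ha2 (-0.48 ± 0.05) and P4ha1 (-0.09 ± 0.04), named after their values were seen, so the list did not move as 1 unit.

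The core of the hypoxia response element is ACGTG, and it was searched on both strands of the RefSeq promoters (build GRCm38.p6, 250 bases before to 50 after each start); this motif was chosen after the values were seen. It was found in 23 of the 35 glycolysis and hypoxia genes with a promoter in the table (65.7%), against 3321 of 11944 tested genes with one (27.8%). It was in 18 of the 28 higher members and in 4 of the 5 lower ones, so it did not separate the directions. The 3 genes of transport and lactate named first are shown over 80 bases around their motifs, to let the sequence be read beside the change, with matches on either strand in capitals (overlaps allowed). Each is written 5′ to 3′ along its gene's strand.
Slc16a3 (chr11:120949016-120949095, plus strand): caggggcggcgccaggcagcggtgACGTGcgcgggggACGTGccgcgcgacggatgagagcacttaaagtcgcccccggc
Ldha (chr7:46845733-46845812, plus strand): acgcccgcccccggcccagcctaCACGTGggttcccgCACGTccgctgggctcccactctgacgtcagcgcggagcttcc
Slc2a1 (chr4:119108672-119108751, plus strand): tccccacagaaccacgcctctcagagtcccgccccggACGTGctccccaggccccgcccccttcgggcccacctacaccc

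**Figure D3:**
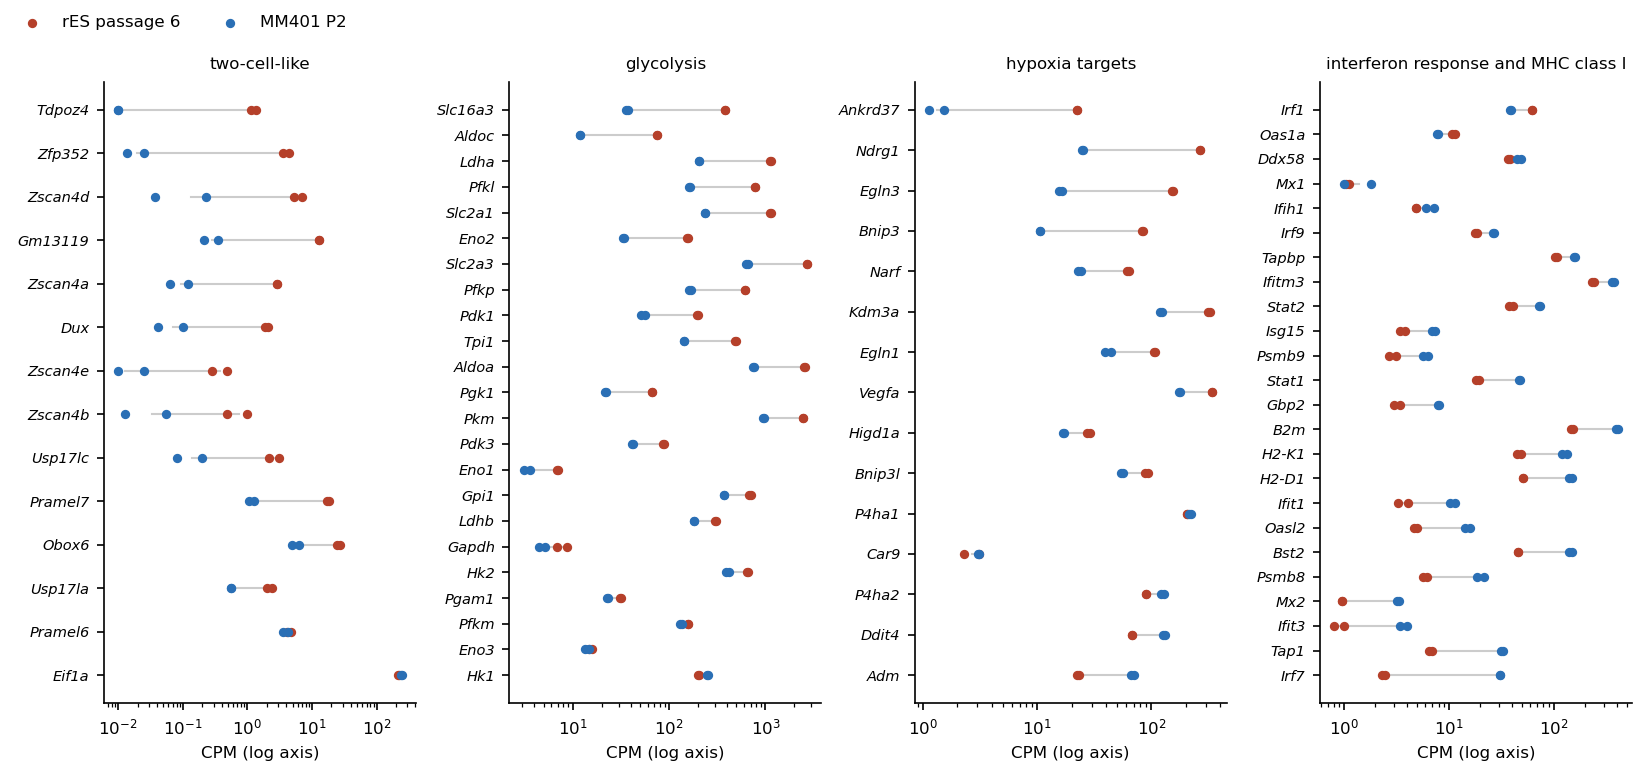
CPM (horizontal log axis) of every tested member of 4 lists in the rES passage 6 and MM401 P2 libraries, 2 points per group, with genes in order of their log2 fold change and values under 0.01 CPM drawn at 0.01. Nearly all two-cell-like and glycolysis genes sit to the right in rES passage 6, hypoxia targets do so in part, and interferon genes sit to the left.

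The list with the highest median was that of the two-cell-like state, a rare and passing state of mouse ESC in which genes of the zygotic genome activation are expressed. Of its 14 tested genes, 12 were higher, Eif1a was lower and Pramel6 was not called, with a median of 4.50, unchanged when the member without a count in MM401 P2 is put at its bound. Zscan4d, a zinc finger gene of this state, had 5.32 and 6.93 CPM in rES passage 6, against 0.231 and 0.0376 CPM in MM401 P2 (5.52 ± 0.33, adjusted p = 1.18e-17). Gm13119 had 12.8 and 12.9 CPM in rES passage 6, against 0.353 and 0.213 CPM in MM401 P2 (5.50 ± 0.22), and Pramel7, of the Prame family, had 17.2 and 18 CPM in rES passage 6, against 1.28 and 1.05 CPM in MM401 P2 (3.92 ± 0.14). All 3 were close to 0 in MM401 P2. Zfp352, a retroposed zinc finger gene, had 93 and 82 counts in rES passage 6, against 1 and 2 counts in MM401 P2. Tdpoz4 had 55 counts over both rES passage 6 libraries and 0 over both MM401 P2 libraries, at least 64.0-fold higher if MM401 P2 is put at the floor of 3 counts, and was chosen after its value was seen. Dux, the factor that switches the state on, was chosen likewise and had 2.11 and 1.86 CPM in rES passage 6, against 0.0407 and 0.100 CPM in MM401 P2. Obox6, an oocyte homeobox gene, rose by 2.21 ± 0.10.

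In the other groups Zscan4d stood at 8.11 and 10.3 CPM in rES passage 30, 5.54 and 4.82 CPM without MM401, 0.521 and 0.523 CPM in MM401 day 3, 1.71 and 1.16 CPM in EpiSC and 0.904 and 0.580 CPM in ESC. Zscan4, Usp17l and Prame-like genes lie in families of near-identical copies, and how multiply mapped reads were counted is not stated in the sources used here, so the share of each copy is uncertain. None of the 14 members follows the feeder markers. In bulk RNA, more cells of a type and more RNA per cell cannot be told apart, for this list or for any list above or below.

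Genes of the germ line, which in ESC are held silent mainly by DNA methylation and by repressors at E-boxes, rose for the most part. Among the 23 tested, 15 were higher, 5 lower and 3 not called (Tdrd1, Dazl and Hormad1), with a median of 0.75. Stra8, which opens the meiotic program, had 12.9 and 13.2 CPM in rES passage 6, against 1.33 and 1.83 CPM in MM401 P2 (3.04 ± 0.16, adjusted p = 4.90e-20). Smc1b, the meiotic cohesin, had 48.8 and 49.5 CPM in rES passage 6, against 7.25 and 8.04 CPM in MM401 P2 (2.68 ± 0.08). Mael, of the piRNA pathway that silences transposons, had 25.1 and 25.5 CPM in rES passage 6, against 9.24 and 8.93 CPM in MM401 P2 (1.48 ± 0.09). The groups were apart in each. Piwil2, of the same pathway, had 75.4 and 73.6 CPM in rES passage 6, against 33.6 and 33.3 CPM in MM401 P2 (1.16 ± 0.05). Tex14, a gene of the bridges between germ cells, fell (23.2 and 23.3 CPM in rES passage 6, against 46.4 and 47.9 CPM in MM401 P2, -1.02 ± 0.07), and Dazl, a germ-cell RNA-binding protein, had 91.8 and 95 CPM in rES passage 6, against 86.9 and 90.7 CPM in MM401 P2 with no call.

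The E-box letters CACGTG were searched on both strands of the same promoters (a match reads the same on both strands). They were found in 11 of the 22 germ line genes with a promoter (50%), against 1344 of the 11944 tested genes with one (11.3%). They were in 9 of the 14 higher members and in 0 of the 5 lower ones, a description of these windows only. Taf7l, an X-linked gene of a transcription initiation subunit (2.18 on the log2 scale), and Sycp3, of the chromosome axis in meiosis (1.28), are shown with Mael because their promoters hold this motif, and both were chosen after their values were seen. Capitals mark the motif.
Mael (chr1:166238915-166238994, minus strand): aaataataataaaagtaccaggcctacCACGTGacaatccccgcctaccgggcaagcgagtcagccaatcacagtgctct
Taf7l (chrX:134476497-134476576, minus strand): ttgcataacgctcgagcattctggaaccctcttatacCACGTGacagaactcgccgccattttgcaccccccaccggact
Sycp3 (chr10:88459507-88459586, plus strand): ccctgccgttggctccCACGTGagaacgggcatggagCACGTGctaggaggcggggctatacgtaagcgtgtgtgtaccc

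Markers of other lineages were split, with single genes apart. Gata2, a zinc finger factor of trophoblast and blood, had 178 and 179 CPM in rES passage 6, against 11.2 and 10.7 CPM in MM401 P2 (4.03 ± 0.06, adjusted p = 8.43e-39), and stood at 2.57 and 2.64 CPM in EpiSC and 14.9 and 15.9 CPM in ESC. The 15 trophoblast genes tested held 7 higher, 3 lower and 5 not called (median 0.19, which was 0.84 in libraries thinned to the shallowest and 0.39 without the genes that follow the feeder markers). Krt19 (1.53 ± 0.12), Eomes (1.04 ± 0.11) and Tead4 (0.84 ± 0.06) rose as well, Tfap2c fell (-0.82 ± 0.05), and Cdx2, a defining factor of that lineage, was under 0.1 CPM in both group means. Of 16 primitive endoderm genes, 12 were lower and 3 higher (median -0.92). The falls with the smallest p were in matrix, receptor and adaptor genes, Sparc (-1.50 ± 0.04), Pdgfra (80.1 and 85.4 CPM in rES passage 6, against 259 and 239 CPM in MM401 P2), Dab2 (-1.67 ± 0.06), Lama1 (-1.20 ± 0.04) and Col4a2 (-0.94 ± 0.04), of which several are also fibroblast genes. The endoderm factor Gata6 instead had 34.6 and 34.7 CPM in rES passage 6, against 13.6 and 11 CPM in MM401 P2 and was higher; Gata6 and Cdx2 were chosen after their values were seen.

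Neural genes were lower in 7 of 9 tested (median -1.34), with falls in Ncam1, a neural adhesion molecule (67.7 and 69.7 CPM in rES passage 6, against 179 and 169 CPM in MM401 P2, -1.34 ± 0.04), Sox1 (-1.23 ± 0.09), Tubb3 (-0.88 ± 0.06) and Zic1 (-2.06 ± 0.26); Nes, an intermediate filament of neural precursors, was higher (0.92 ± 0.05). Of 13 mesoderm genes, 3 were higher, 4 lower and 6 not called, and the median of -0.19 turned to 0.028 with no filter on low counts and was -0.011 without the second MM401 P2 library (4 higher, 3 lower) and -0.078 without the second rES passage 6 library (3 higher, 2 lower). The mesoderm gene T (brachyury) had 0.527 and 0.780 CPM in rES passage 6, against 1.91 and 2.06 CPM in MM401 P2 (-1.59 ± 0.30), Gsc changed by -0.68 ± 0.13, Hand1 by 2.73 ± 0.43 and Kdr by 0.94 ± 0.18. All 4 had group means under 10 CPM. Of 16 epithelial genes 5 were higher and 5 lower, with a median of -0.05, against 4 higher, 2 lower and 0.064 for the 11 that do not follow the feeder markers. The E-cadherin gene Cdh1 had 202 and 204 CPM in rES passage 6, against 178 and 170.4 CPM in MM401 P2 (0.22 ± 0.04), Cldn4 rose (0.84 ± 0.05), and Cldn6 (-1.57 ± 0.12), Esrp1 (-2.14 ± 0.22) and Tjp3 (-0.67 ± 0.08) fell.

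Each list of signalling genes held both higher and lower members, as nearly any list would with 35.5% of all genes tested higher and 37.5% lower. In the LIF and STAT3 list, 6 of 17 were higher and 9 lower (median -0.15). Without the 5 that follow the feeder markers, 5 were higher and 5 lower, with a median of -0.0036. Beside the rises of Klf4 and of Gbx2, a homeobox target of STAT3 (1.62 ± 0.07), the direct feedback gene Socs3 had 89.2 and 92 CPM in rES passage 6, against 174 and 174 CPM in MM401 P2 (-0.94 ± 0.04). Osmr, the oncostatin M receptor, which is also a fibroblast gene, had 28.9 and 30.6 CPM in rES passage 6, against 170.4 and 163 CPM in MM401 P2 (-2.48 ± 0.05), and Bcl3 fell (-1.20 ± 0.05). In the Nodal and activin list, 9 of 17 were higher and 4 lower (median 0.18, which was 0.10 without the second MM401 P2 library and 0.081 without the genes that follow the feeder markers). The Nodal inhibitor Lefty1 had 247 and 248 CPM in rES passage 6, against 70.4 and 66.6 CPM in MM401 P2 (1.85 ± 0.04), Lefty2 had 468 and 477 CPM in rES passage 6, against 200.4 and 190.4 CPM in MM401 P2 (1.27 ± 0.03), and Smad7, an inhibitory SMAD, had 292 and 281 CPM in rES passage 6, against 105 and 103 CPM in MM401 P2 (1.46 ± 0.04). All 3 are feedback targets of the pathway and all lay higher in both rES passage 6 libraries. The co-receptor Tdgf1 rose by 0.87 ± 0.03 and Inhbb, an activin subunit, fell (-0.59 ± 0.05).

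Feedback genes of FGF and ERK were higher in 10 of 19 cases and lower in 5 (median 0.25), and in 9 and 2 of the 15 that do not follow the feeder markers. Spry4, an inhibitor that ERK induces, had 110.3 and 111 CPM in rES passage 6, against 24.4 and 24 CPM in MM401 P2 (2.19 ± 0.05), and the phosphatase Dusp4 had 77.8 and 77.7 CPM in rES passage 6, against 24.5 and 22.2 CPM in MM401 P2 (1.74 ± 0.06). The immediate early gene Egr1 rose by 1.21 ± 0.04, while the receptor Fgfr1, also used by fibroblasts, fell to 146 and 141 CPM in rES passage 6, against 309 and 301 CPM in MM401 P2 (-1.09 ± 0.04). The inhibitors did not all rise, since Spry1 (-0.80 ± 0.07), Dusp14 (-0.67 ± 0.13) and Spred1 (-0.20 ± 0.05) fell, named after their values were seen. In the BMP list 9 of 15 were higher and 4 lower (median 0.30), including 3 of the Id factors that BMP induces, with Id3 at 81.3 and 76.1 CPM in rES passage 6, against 18.6 and 19.2 CPM in MM401 P2 (2.06 ± 0.06), Id4 at 2.18 ± 0.07 and Id1 at 0.94 ± 0.09, while Smad1 (-1.02 ± 0.08) and Bmpr2 (-0.64 ± 0.06) fell. The fourth, Id2, had 20.9 and 24.2 CPM in rES passage 6, against 20.6 and 20.3 CPM in MM401 P2 with no call, and was picked with its values in view. Of 21 Wnt genes 9 were higher and 9 lower (median 0.12). The 17 that do not follow the feeder markers held 8 higher and 5 lower (median 0.58), and the median of all 21 was 0.073 without the second MM401 P2 library and 0.32 without the second rES passage 6 library. Notum, a secreted Wnt inhibitor and target, had 56 and 53 CPM in rES passage 6, against 5.35 and 5.97 CPM in MM401 P2 (3.26 ± 0.07), X-linked Porcn, which acylates Wnt ligands, rose by 2.05 ± 0.06 and Apc by 0.87 ± 0.05, and Sfrp1, a secreted antagonist, fell (-0.82 ± 0.03).

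Proliferation genes were mostly higher. In the cell cycle and mitosis list 21 of 27 were higher and 6 lower (median 0.53), and in the DNA replication list 18 of 24 were higher and 2 lower (median 0.39). Mki67, a proliferation marker, had 483 and 506 CPM in rES passage 6, against 177 and 200.2 CPM in MM401 P2 (1.39 ± 0.04, adjusted p = 8.22e-25), and Top2a, topoisomerase II, had 1083 and 1093 CPM in rES passage 6, against 563 and 562 CPM in MM401 P2 (0.95 ± 0.03). Kif11 (0.83 ± 0.04) and Cenpe (1.17 ± 0.05), motors of the spindle, rose as well. The 6 that fell were the cyclins Ccnd2 (-1.05 ± 0.04) and Ccne1, the kinase Cdk6 and the inhibitors Cdkn2a, Cdkn2b and Cdkn1c; Ccne1, Cdk6, Cdkn2b and Cdkn1c were named after their values were seen. Cdkn2a, the Ink4a and Arf gene, had 30.6 and 29.8 CPM in rES passage 6, against 36.2 and 38.4 CPM in MM401 P2 (-0.31 ± 0.07, adjusted p = 1.35e-04). Replication genes rose in small steps, such as Mcm5 (0.89 ± 0.03), Pole (0.85 ± 0.04), Mcm3 (0.67 ± 0.03) and Mcm4 (0.65 ± 0.04), except for X-linked Pola1, the catalytic gene of the primase-bearing polymerase (234 and 241 CPM in rES passage 6, against 59.6 and 57.9 CPM in MM401 P2, 2.02 ± 0.04). In the Myc and Lin28 list 9 of 14 were higher and 3 lower (median 0.37), with Myc at 54.3 and 49.1 CPM in rES passage 6, against 21.7 and 22.7 CPM in MM401 P2 (1.22 ± 0.06), Mga, a partner of MAX that opposes Myc, at 1.43 ± 0.04, and the nucleolar genes Npm1 (0.77 ± 0.04), Ncl (0.63 ± 0.03) and Nop56 (0.52 ± 0.03) higher.

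Genes that p53 induces were mostly lower, 12 of 17, with 5 higher (median -0.83). Cdkn1a (p21), a brake on the cell cycle, had 209 and 199 CPM in rES passage 6, against 496 and 501 CPM in MM401 P2 (-1.29 ± 0.04, adjusted p = 1.05e-29). Ccng1 had 258 and 272 CPM in rES passage 6, against 575 and 559.8 CPM in MM401 P2 (-1.10 ± 0.04), Phlda3 changed by -1.75 ± 0.05, Zmat3 changed by -1.35 ± 0.04 and Gdf15, a secreted stress cytokine, by -2.16 ± 0.10. The stress and unfolded protein list went the same way, with 15 of 20 lower and 3 higher (median -0.45). The falls with the smallest p were in genes of the amino acid response, Trib3 (18 and 20.1 CPM in rES passage 6, against 66.1 and 63.7 CPM in MM401 P2, -1.77 ± 0.06), Ddit3 (-1.24 ± 0.08), Psat1 (-1.04 ± 0.04), Psph (-0.88 ± 0.05) and Slc7a5 (-0.92 ± 0.04). Among the p53 genes 9 of 17, and among the stress genes 9 of 20, follow the feeder markers. Without those genes the medians were -0.27 for the p53 list and -0.29 for the stress list, and the part of feeder cells in both was not tested further. Threonine, glycine and folate enzymes, on which mouse ESC depend through Tdh, were higher in 8 of 13 cases and lower in 3 (median 0.45). Tdh had 391 and 387 CPM in rES passage 6, against 160.1 and 167 CPM in MM401 P2 (1.25 ± 0.04), its partner Gcat rose (1.23 ± 0.04), as did Gcsh (0.88 ± 0.04) and Gldc (0.66 ± 0.04), and the mitochondrial Mthfd2 fell (-1.13 ± 0.04). Of 22 genes of cholesterol synthesis 10 were higher and 9 lower (median -0.02, between -0.15 and 0.033 over the alternatives), with X-linked Nsdhl higher (0.95 ± 0.05) and Sc5d (-0.95 ± 0.06), Dhcr7 (-0.69 ± 0.04) and Cyp51 (-0.44 ± 0.04) lower.

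The lowest list median was that of feeder fibroblast markers, chosen to read the support cells on which such cultures may be grown; the labels name feeder cells for ESC and are silent for the other groups. Of 22 tested, 20 were lower, S100a4 was higher and Fn1 was not called (median -2.07). Their summed level was 7339.7 and 7317 CPM in rES passage 6, against 22478 and 21896 CPM in MM401 P2. It was 4373 and 4347 CPM in rES passage 30, 3619 and 3688 CPM without MM401, 9194 and 9122 CPM in MM401 day 3, 8774 and 8827 CPM in EpiSC and 13184 and 13132 CPM in ESC. MM401 P2 thus had the highest sum of all groups. Its summed level of the core pluripotency genes, 5548 and 5534 CPM, was the lowest of all groups. The share of pluripotent cells in each group was not tested. Col3a1, a fibrillar collagen, had 93.2 and 88.7 CPM in rES passage 6, against 2555 and 2454 CPM in MM401 P2 (-4.78 ± 0.05, adjusted p = 8.42e-45), and Dcn, a matrix proteoglycan, had 90.3 and 87.1 CPM in rES passage 6, against 547 and 557 CPM in MM401 P2 (-2.64 ± 0.04). Col5a2 (-2.69 ± 0.04), Col6a1 (-2.74 ± 0.04) and Col6a2 (-3.14 ± 0.05) fell with them. None of the 22 markers had a group mean of 0.

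Over the 10 libraries outside the comparison, 2642 of the tested genes had a Pearson r above 0.7 between their log2 level and the mean log2 level of the feeder markers, which describes genes that follow them across those libraries. Of these, 119 were higher and 2142 lower in rES passage 6. Without them, 9544 genes were called, 4616 higher and 4928 lower, though leaving them out rescaled the libraries and moved the log2 fold changes of the genes that stay by a median of -0.12. Every median given for a list without these genes includes that shift. Markers of endothelium and blood went down as well, with 9 of 11 lower (median -1.73, or -1.04 for the 5 that do not themselves follow the feeder markers) and a summed level of 157 and 161 CPM in rES passage 6, against 577 and 576 CPM in MM401 P2. Mmrn2, an endothelial matrix gene, had 17.8 and 17.8 CPM in rES passage 6, against 217 and 209 CPM in MM401 P2 (-3.58 ± 0.06), and the macrophage genes Lyz2 (76.9 and 74.8 CPM in rES passage 6, against 252 and 259.7 CPM in MM401 P2), Itgam (-2.34 ± 0.11) and Csf1r (-2.07 ± 0.19) and the vessel gene Tek (-0.92 ± 0.13) fell. Mmrn2 and Lyz2 held most of the summed level in MM401 P2 and did not go together across groups. Mmrn2 had 4.53 and 4.95 CPM in EpiSC and 188 and 178 CPM in MM401 day 3. Lyz2 had 428 and 438 CPM in EpiSC and 146 and 143 CPM in MM401 day 3, so the sum does not read a single cell type. Cdh5, a defining endothelial gene, had 0.240 and 0.260 CPM in rES passage 6, against 1.13 and 1.17 CPM in MM401 P2 (-2.18 ± 0.42). Ptprc, a defining blood gene, had 1.01 and 0.520 CPM in rES passage 6, against 2.21 and 2.79 CPM in MM401 P2 (-1.73 ± 0.31), and both were chosen after their values were seen. Mesenchymal genes were lower in 13 of 14 cases (median -1.01), such as Mmp2 (93.2 and 92 CPM in rES passage 6, against 670.4 and 674 CPM in MM401 P2, -2.86 ± 0.04), Mmp14 (-1.81 ± 0.04), Cdh11 (75.5 and 70.3 CPM in rES passage 6, against 151 and 140.2 CPM in MM401 P2) and Twist1 (-1.47 ± 0.09).

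**Figure D4:**
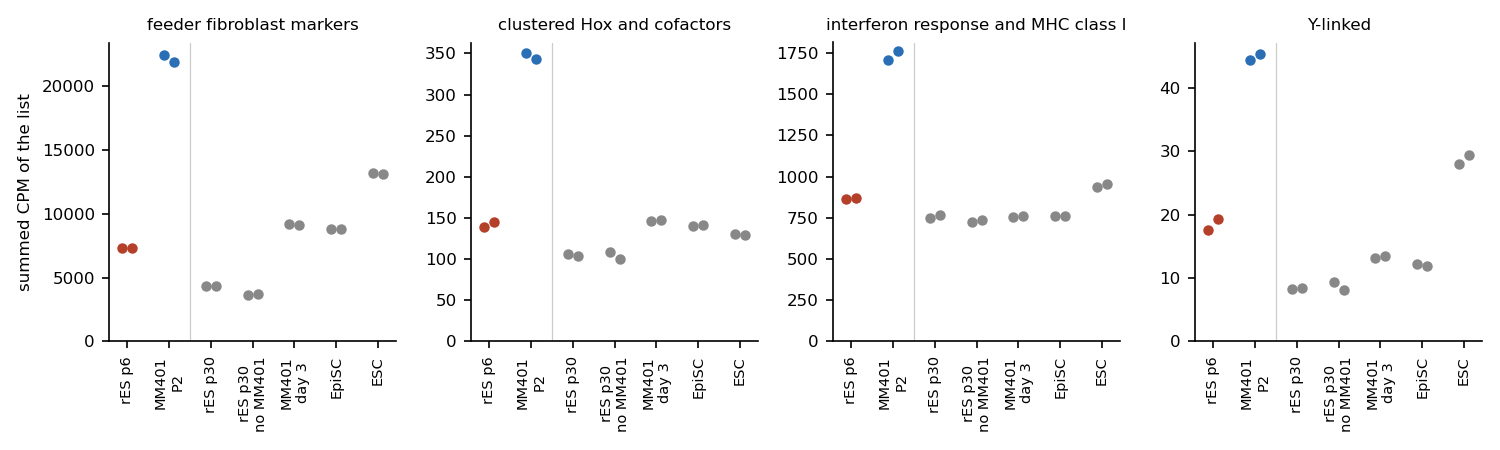
Summed CPM (vertical axis, from 0) of 4 lists in each of the 14 libraries, rES passage 6 and MM401 P2 at the left in colour. MM401 P2 holds the highest feeder marker sum (22478 and 21896 CPM), and its Hox, interferon and Y-linked sums also lie above those of all other groups.

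Clustered Hox genes, which pattern the body axis and are well-known targets of MLL1, were lower. Of 40 genes tested with cofactors such as Meis1 and Meis2, 32 were lower, Hoxc12 was higher and 7 were not called, with a median of -1.42. Their summed level was 139 and 146 CPM in rES passage 6, against 351 and 344 CPM in MM401 P2. It was 140 and 142 CPM in EpiSC, 147 and 148 CPM in MM401 day 3 and 130 and 129 CPM in ESC. The reverted line had 106 and 104 CPM at passage 30, and 109 and 101 CPM there without MM401. MM401 P2 thus held the highest of these sums, and rES passage 6 lay near EpiSC, MM401 day 3 and ESC. Hoxc6 had 4.84 and 5.67 CPM in rES passage 6, against 22.8 and 22 CPM in MM401 P2 (-2.09 ± 0.11, adjusted p = 1.56e-19), Hoxd8 had 5.94 and 6.37 CPM in rES passage 6, against 25.1 and 25 CPM in MM401 P2 (-2.02 ± 0.12) and Hoxb4 had 4.50 and 4.20 CPM in rES passage 6, against 18.4 and 18.1 CPM in MM401 P2 (-2.07 ± 0.12). In each of the 3, both rES passage 6 libraries lay below both MM401 P2 libraries. The cofactor gene Meis1 fell too (-1.89 ± 0.12). Fibroblasts express Hox genes, and 12 of the 40 follow the feeder markers; the other 28 had a median of -1.28. The part of feeder cells in the Hox result was not tested beyond this.

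Interferon response and MHC class I genes were also lower, in 21 of 24 cases, with Irf1 and Oas1a higher and Mx1 not called (median -1.32). The summed level was 861 and 871 CPM in rES passage 6, against 1704 and 1761 CPM in MM401 P2. It was 763 and 762 CPM in EpiSC, 756 and 759 CPM in MM401 day 3 and 940 and 955 CPM in ESC. The reverted line had 750 and 767 CPM at passage 30, and 726 and 735 CPM there without MM401. MM401 P2 thus stood above every other group, and rES passage 6 lay within the range of the others. Bst2 (tetherin), an antiviral membrane protein, had 46.3 and 46 CPM in rES passage 6, against 142 and 151 CPM in MM401 P2 (-1.67 ± 0.05, adjusted p = 1.91e-27). H2-K1, a classical class I chain, had 44.9 and 48.6 CPM in rES passage 6, against 121 and 133 CPM in MM401 P2 (-1.44 ± 0.05). H2-D1, the other such chain, had 50.8 and 51.5 CPM in rES passage 6, against 139 and 149 CPM in MM401 P2 (-1.50 ± 0.05). These 3 separated the groups. Irf7, which amplifies the response, had 2.49 and 2.34 CPM in rES passage 6, against 31.2 and 31.2 CPM in MM401 P2 (-3.69 ± 0.13). It was the widest fall of the list. The peptide transporter gene Tap1 changed by -2.26 ± 0.10. H2-K1 and H2-D1 are close paralogs, so the split of reads between them is uncertain. Of the 24 genes, 6 follow the feeder markers, and the other 18 had a median of -1.06. Feeder, macrophage and endothelial markers moved the same way, and their part in the interferon result was not tested further.

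Letters of the interferon-stimulated response element, AANNGAAA (N is any base), were searched on both strands, with overlaps allowed. They were in 13 of 21 promoters of the list (61.9%), 12 of them among the 19 lower members, against 2555 of 11944 (21.4%) over all. Promoter windows of Bst2, H2-K1 and B2m, the class I light chain (-1.43, chosen after its value was seen), are given because these genes fell and hold the motif; capitals mark the motif on either strand.
Bst2 (chr8:71537552-71537631, minus strand): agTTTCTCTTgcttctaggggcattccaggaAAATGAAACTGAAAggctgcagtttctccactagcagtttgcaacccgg
H2-K1 (chr17:34000395-34000474, minus strand): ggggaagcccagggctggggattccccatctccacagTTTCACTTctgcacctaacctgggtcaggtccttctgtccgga
B2m (chr2:122147513-122147592, plus strand): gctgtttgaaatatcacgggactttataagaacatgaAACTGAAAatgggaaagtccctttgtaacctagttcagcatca

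MHC class II genes, by contrast, were higher in 5 of 8 cases and lower in 2 (median 1.76). H2-Eb1 had 46.1 and 51 CPM in rES passage 6, against 6.77 and 7.01 CPM in MM401 P2 (2.82 ± 0.08, adjusted p = 1.12e-29), H2-Ab1 had 13.2 and 13 CPM in rES passage 6, against 1.89 and 1.25 CPM in MM401 P2 (3.07 ± 0.16), and the invariant chain Cd74 had 4.41 and 4.16 CPM in rES passage 6, against 0.651 and 0.590 CPM in MM401 P2 (2.78 ± 0.25). The class II activator Ciita had 0.719 and 0.780 CPM in rES passage 6, against 0.0271 and 0.125 CPM in MM401 P2 (3.22 ± 0.63), and H2-Aa, the partner of H2-Ab1, had 0.814 and 0.650 CPM in rES passage 6, against 2.98 and 2.80 CPM in MM401 P2 and fell (-1.98 ± 0.26). The 2 chains of this class II molecule therefore moved in opposite directions. None of the 8 follows the feeder markers, and the macrophage genes given with the feeder markers fell. Which cells held the class II RNA was not tested.

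Imprinted genes were lower in 16 of 28 cases and higher in 9 (median -0.33). The paired genes Igf2, a growth factor expressed from the paternal copy, and H19, its maternally expressed neighbour, both fell. Igf2 had 123 and 124 CPM in rES passage 6, against 1017 and 998 CPM in MM401 P2 (-3.03 ± 0.04, adjusted p = 8.11e-41), and H19 had 258 and 253 CPM in rES passage 6, against 1857 and 1911 CPM in MM401 P2 (-2.88 ± 0.04). These 2 genes use the same enhancers from opposite copies and lay lower together in both rES passage 6 libraries. Igf2 stood at 62.3 and 64 CPM in rES passage 30, 278 and 269.7 CPM in MM401 day 3, 296 and 304 CPM in EpiSC and 131 and 130.4 CPM in ESC. Peg10, a paternally expressed gene of retroviral origin, rose (600.2 and 605 CPM in rES passage 6, against 64.5 and 55.6 CPM in MM401 P2, 3.33 ± 0.05), and Gnas fell (-1.09 ± 0.03). Fibroblasts also express Igf2 and H19, 8 of the 28 genes follow the feeder markers, and the other 20 had a median of -0.31.

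The X chromosome stood apart from the autosomes. Of 608 X-linked genes tested, 332 were higher (54.6%), 144 lower (23.7%) and 132 not called, against 34.8% higher and 37.9% lower of 15548 autosomal genes. The median log2 fold change was 0.47 over X-linked genes (quartiles -0.29 and 1.04; median 0.30 with no filter on low counts) and -0.02 over autosomal genes (quartiles -0.53 and 0.42), and the medians of single autosomes lay between -0.09 (chromosome 3) and 0.04 (chromosome 9). X-linked genes held 4.31% and 4.34% of counts in rES passage 6, against 3.11% and 3.11% in MM401 P2. The share was 4.40% and 4.44% in rES passage 30, 4.39% and 4.31% without MM401, 2.90% and 2.94% in MM401 day 3, 3.22% and 3.24% in EpiSC and 3.09% and 3.07% in ESC. All 6 libraries of the reverted lines thus lay above all 8 others. Those 6 carry the label CD1-deltaTSIX/JF1 and the 8 carry CD1/JF1, so the label and the reverted line cannot be told apart here.

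**Figure D5:**
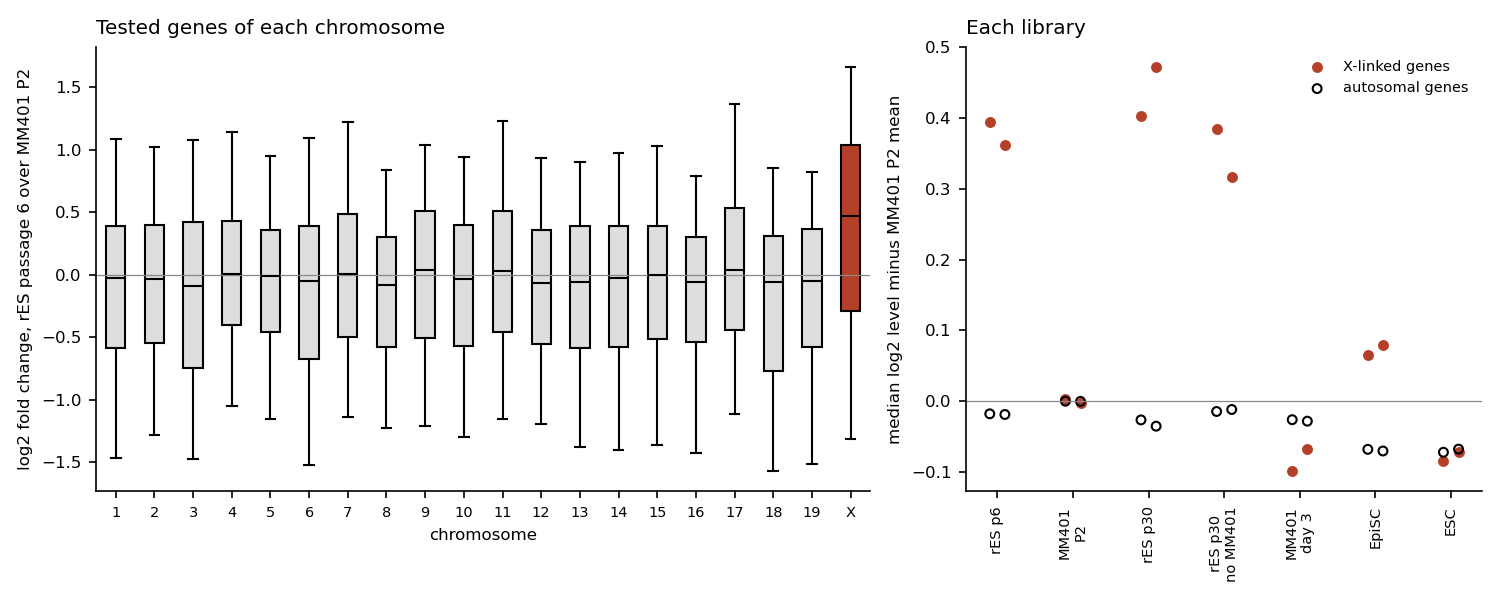
Left, log2 fold change of the tested genes of each chromosome (box, quartiles with the median as a line; whiskers, 10th and 90th percentiles). Right, median over X-linked (filled) and autosomal (open) genes of the log2 level in each library minus the MM401 P2 mean; X-linked genes lie above 0 in the rES libraries and near 0 in the others.

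Xist had 86.2 and 87.7 CPM in rES passage 6, against 119 and 133 CPM in MM401 P2 (-0.54 ± 0.09, adjusted p = 1.89e-04), and 48.2 and 50.1 CPM in rES passage 30, 35.5 and 42.6 CPM in MM401 day 3, 620.3 and 624 CPM in EpiSC and 30.2 and 31.6 CPM in ESC. Rlim, an X-linked ligase that activates Xist, rose (218 and 212 CPM in rES passage 6, against 119 and 125 CPM in MM401 P2, 0.82 ± 0.04), as did Huwe1, another X-linked ligase gene (1489 and 1520.2 CPM in rES passage 6, against 518 and 490.3 CPM in MM401 P2, 1.58 ± 0.03). Jpx, an activator RNA near Xist, was under 0.5 CPM in all 4 libraries (-2.09 ± 0.83), and its call was lost without either rES passage 6 library (adjusted p = 0.147 without replicate 1 and 0.0757 without replicate 2) and when the libraries were thinned to the shallowest (adjusted p = 0.107). Outside the X inactivation list, whose members Xist, Tsix and Jpx fell, the X-linked genes Nr0b1, Hcfc1, Atrx, Cox7b, Porcn, Pola1, Nsdhl and Taf7l described above rose. The 4 Y-linked genes tested all fell (median -1.32), summing to 17.5 and 19.3 CPM in rES passage 6, against 44.3 and 45.3 CPM in MM401 P2. Ddx3y, a helicase gene, had 8.19 and 10.4 CPM in rES passage 6, against 17.4 and 21.3 CPM in MM401 P2 (-1.05 ± 0.12) and Eif2s3y, a translation factor gene, had 5.32 and 5.28 CPM in rES passage 6, against 16.7 and 15.1 CPM in MM401 P2 (-1.58 ± 0.13); Kdm5d (-1.43 ± 0.20) and Uty (-1.21 ± 0.22) fell too. Both groups thus held Y-linked RNA at low levels, and the feeder marker sum was lower in rES passage 6 too. Across groups the order differed, since EpiSC had a Y-linked sum of 12.2 and 11.8 CPM at a higher feeder marker sum than rES passage 6. Of the 4 Y-linked genes, 2 follow the feeder markers. The source of the Y-linked RNA was not tested.

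The 15 largest rises, with a mean of 10 CPM or more on either side, included Tmem92, Aire, Trh, Tspo2, Gm13119, Gm5039, Cyp2s1, Ripply3, Fgf15, AU015836, Gm12794, Serpinb2, A2m and Grin1. Tmem92, a membrane protein gene, had 34.3 and 36.1 CPM in rES passage 6, against 0.339 and 0.100 CPM in MM401 P2 (7.33 ± 0.17, adjusted p = 3.13e-30), and 40.9 and 46.7 CPM in rES passage 30, 3.26 and 3.01 CPM in EpiSC and 1.04 and 1.45 CPM in ESC. Aire, the thymic regulator of tissue antigens that is also expressed in ESC, had 71.1 and 70.5 CPM in rES passage 6, against 0.624 and 0.765 CPM in MM401 P2 (6.66 ± 0.10), and 74 and 64.9 CPM in rES passage 30, 2.00 and 1.94 CPM in EpiSC and 88.6 and 86.4 CPM in ESC. Trh, the thyrotropin-releasing hormone precursor, had 68.1 and 64.9 CPM in rES passage 6, against 1.18 and 1.41 CPM in MM401 P2 (5.68 ± 0.08), and 104 and 104 CPM in rES passage 30, 337 and 342 CPM in EpiSC and 504 and 501 CPM in ESC. For Trh the rES passage 6 libraries were below both the EpiSC and the ESC libraries. For Aire the rES passage 6 libraries were below the ESC libraries and far above MM401 P2. Fgf15, an FGF of the embryonic brain, had 26.7 and 27 CPM in rES passage 6, against 1.25 and 0.815 CPM in MM401 P2 (4.71 ± 0.12), and Ripply3, a T-box co-repressor, had 34.9 and 33 CPM in rES passage 6, against 1.11 and 1.18 CPM in MM401 P2 (4.88 ± 0.13). None of the 15 follows the feeder markers, a set picked over libraries that include the reverted line at passage 30. The other 8 named here, leaving out Gm13119, had log2 fold changes between 4.35 and 5.61.

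The 15 largest falls were 2810459M11Rik, Ptx3, Wisp2, Car2, Sod3, Ednrb, Rps15a-ps6, Dpys, Txnip, Angpt1, Ccl11, Col3a1, Abi3bp, Cxcl12 and Aspn. Ptx3, a secreted pattern receptor of stromal cells, had 3.83 and 2.90 CPM in rES passage 6, against 177 and 177 CPM in MM401 P2 (-5.72 ± 0.09, adjusted p = 1.88e-37). Car2, a carbonic anhydrase, had 1.87 and 1.78 CPM in rES passage 6, against 83.5 and 79.8 CPM in MM401 P2 (-5.49 ± 0.10), and 259 and 257 CPM in EpiSC and 54.2 and 58.4 CPM in ESC. Ednrb, an endothelin receptor, had 0.527 and 0.606 CPM in rES passage 6, against 23.1 and 19.7 CPM in MM401 P2 (-5.22 ± 0.20). These were near 0 or low in rES passage 6 and clear in both MM401 P2 libraries. The chemokine Cxcl12 had 4.55 and 3.90 CPM in rES passage 6, against 109 and 102 CPM in MM401 P2 (-4.64 ± 0.09), and Sod3, an extracellular superoxide dismutase, had 4.50 and 4.63 CPM in rES passage 6, against 184 and 182 CPM in MM401 P2 (-5.32 ± 0.08). Wisp2, Ccl11, Abi3bp, Aspn, Cxcl12, Sod3, Ptx3 and Col3a1 encode secreted or matrix proteins that fibroblasts make, and 13 of the 15 genes follow the feeder markers. Genes low in the reverted line can be in that set for other reasons, so this count is not read further. Rps15a-ps6 is a ribosomal pseudogene, so its counts may be shared with other copies and are uncertain.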

How the data were processed

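Per the labels' protocols, total RNA (RNeasy kit, DNase-treated) went into Illumina TruSeq libraries with single-end reads. The authors deposited raw read counts for 24015 gene symbols. TopHat2, Subread and DESeq, and the build mm9, are listed without versions or roles, per the submitters' processing notes. Strand and the handling of multiply mapped reads are not stated there. The table has 2 more columns that fit no label, which were left unused. Depth ranged from 20831588 to 80383376 counts in the 4 libraries compared.

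Genes were kept with filterByExpr (16247), scaled with TMM and tested with edgeR 4.0.16 (R 4.3.3; glmQLFit with robust estimation, F test) in a model of all 14 libraries with 1 mean per group, so that all groups share the estimate of spread. The call threshold was an adjusted p of 0.05. The standard error is the absolute log2 fold change divided by the square root of F. Where a group had no count, the floor was 3 counts over the group. Named genes are a panel, the 15 largest called rises and falls with at least 10 CPM and no overlap, and up to 5 called members of each list by smallest p; other names are marked, and some genes under this rule are not reported here. The comparison, the lists and the named genes were chosen with earlier results of these data known. Chromosomes (99.2% of symbols matched) and promoters came from RefSeq tables of GRCm38.p6, a later build than mm9, by symbol. Alternatives were RLE factors, library totals, no filter, the 4 libraries only, no day 3 libraries, a replicate block, a threshold of 2-fold, leaving out each of the 4 libraries, thinning to the shallowest, no Rn45s, no feeder-following genes, and DESeq2 1.42.0. The code was tested on simulated data.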

Additional observations from a re-analysis of the deposited data

How the results depend on the processing

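The number of genes called (11856, with 5771 higher and 6085 lower in rES passage 6) was 2535 (1142 higher, 1393 lower) when a change had to exceed 2-fold. It stayed between 11321 and 11965 with RLE factors, library totals, no filter on low counts, the 4 libraries alone, no day 3 libraries, thinning, no Rn45s or DESeq2, and was 9544 without the feeder-following genes. With 1 library left out at a time it ranged from 10600 to 11527 (5165 to 5626 higher, 5435 to 5901 lower). The labels give the replicate numbers no shared origin, and deviations of same-numbered libraries had a correlation of -0.04; a replicate block gave 11843 calls (5766 higher, 6077 lower). The median of all genes tested lay between -0.03 and 0.01 under all of these, but genes that stayed moved by a median of -0.12 when the feeder-following genes were left out.

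Of 3239 values of 220 named genes under these alternatives, 3158 kept direction and call, 76 lost their call at the 2-fold threshold, 4 lost it elsewhere (Nanog and Jpx, as given above) and 1 reversed (Nanog, -0.011 without the feeder-following genes). The mesoderm median turned to 0.028 with no filter, and the medians of the primed, epithelial, cholesterol and respiratory lists changed sign under at least 1 alternative. The cause was not tested. Depth differed by more than 3-fold between the groups, and with 2 libraries each, spread within a group rests on 1 difference.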

Other observations

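Some gene families were looked at after their values had been seen, and are given as descriptions only. Some of their members are also in the lists above. Of 22 chemokine genes (Ccl and Cxcl) tested, 18 were lower in rES passage 6 and 0 higher, with a median log2 fold change of -1.95. Cxcl12, which draws stem cells to stroma, is among them. All 7 tested complement genes were lower (median -2.05), as were 7 of 8 genes of the Serpina3 cluster of protease inhibitors (median -2.85), whose members are close copies, so the split between them is uncertain. Of 40 collagen genes, 28 were lower and 6 higher (median -1.08), and of 17 Adamts matrix proteases 11 were lower and 4 higher (median -0.88). The feeder marker sum, which itself holds some of these collagens, moved the same way, and its part in these families was not tested. On the higher side, 6 of 8 radial spoke and tektin genes, which build cilia and flagella, rose and 0 fell (median 1.17). Of 11 axonemal dynein heavy chain genes, 4 rose and 1 fell (median -0.38). Of 16 keratin genes, 6 were higher and 3 lower (median 0.40). The shares of dyneins and keratins called higher were near that of all genes tested, of which 35.5% were higher and 37.5% lower. Reg3g, a secreted antimicrobial lectin, had 0 counts in both rES passage 6 libraries and 1051 over both MM401 P2 libraries, at least 100-fold lower against a floor of 3 counts over the group.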
